A study of Homo sapiens with 9 samples.

Results

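The 10 genes described here move iron into the cell, store it, pass it to mitochondria, release it from heme, export it or sense it. They were TFRC, STEAP3, SLC11A2, SLC25A37, FTH1, FTL, HMOX1, SLC40A1, ACO1 and IREB2, chosen by symbol from 63677 gene IDs in the count lists, and all 10 had a row. RNA was sequenced from 9 cultures of K562, an erythroleukaemia line derived from chronic myeloid leukaemia. There were 4 CRISPR clones that carry SRSF2 P95H (P9, P15, P22 and P38), 4 with wild-type SRSF2 (W19, W33, W36 and W42) and the parental line, also wild-type for SRSF2. SRSF2 is a serine- and arginine-rich splicing factor, and the series was set up to find splicing events that differ with its genotype. The counts used here are per gene and do not separate the alleles or isoforms. Each culture is 1 library, each clone grew from the same line, and whether clones of a group stem from separate edits is not stated. The p-values therefore weigh differences against variation between these libraries, in which clone, culture and library preparation cannot be told apart.

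Red cell precursors take up more iron than most cells because they make heme for hemoglobin. Transferrin-bound iron enters through the transferrin receptor (TFRC), is reduced in endosomes by STEAP3, leaves them through SLC11A2 and enters mitochondria through SLC25A37. Iron that is not used is held in ferritin, a shell of heavy chains (FTH1) and light chains (FTL), and excess iron leaves the cell through ferroportin (SLC40A1). The iron regulatory proteins, encoded by ACO1 and IREB2, bind hairpins called iron-responsive elements when iron is scarce. Binding in a 5′ untranslated region blocks translation and binding in the 3′ untranslated region of TFRC protects its mRNA from decay. Much of this control therefore acts on translation, which mRNA counts do not measure.

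The hairpins tie several of the 10 genes together, so their sites are shown first. Coding transcripts of GENCODE 29 were searched on the transcribed strand for a bulged C, 5 stem bases, the loop CAGTGN and 5 bases that pair with the stem, with G to T pairs allowed. Of the 10 genes 4 held a match, TFRC, FTH1, FTL and SLC40A1, against 291 of 19684 coding genes (1.48%), and the match of FTH1 lay in its 5′ untranslated region. TFRC had 4 matches in 1 transcript, where 5 coding genes (0.0254%) had 2 or more. The sites are printed as DNA, 5′ to 3′, with the 6 loop bases in capitals. The first 4 lie in the 3′ untranslated region of TFRC (chromosome 3, minus strand), with loops starting at bases 3400, 3804, 3869 and 3916 of the 5111-base transcript TFRC-201. The next lies in the 5′ untranslated region of FTL (chromosome 19, plus strand), at base 47 of the 878-base FTL-201, and the last in that of SLC40A1 (chromosome 2, minus strand), at base 211 of the 3442-base SLC40A1-201.
TFRC site at 3400: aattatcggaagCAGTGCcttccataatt
TFRC site at 3804: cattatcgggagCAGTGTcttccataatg
TFRC site at 3869: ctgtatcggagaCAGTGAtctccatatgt
TFRC site at 3916: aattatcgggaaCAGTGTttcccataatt
FTL site at 47: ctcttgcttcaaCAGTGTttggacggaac
SLC40A1 site at 211: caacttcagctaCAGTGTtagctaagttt
The loop began CAGTG in all 6 by the search itself, and the last loop base was T in 4 of them, C in 1 and A in 1. A match describes the sequence and does not show that a protein bound it. The search takes only this strict form, so a gene without a match can still carry an element. SLC11A2 had no match but is on the list, used below, of mRNAs reported to carry one.

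Reads counted in genes came to 24546255 to 35477328 per library, which puts 3 counts, taken as the floor, at 0.0864 to 0.128 CPM. CPM is the count scaled to a common library total, and this limit covers counting error alone. All 20 erythroid markers examined were above the floor in all 9 libraries, with summed levels of 2708 to 8131 CPM in P95H clones, 2743 to 5329 CPM in WT clones and 3514 CPM in the parental line. Of the markers of other cells, 7 of 8 lymphoid, 4 of 7 monocyte and macrophage and 9 of 10 fibroblast and epithelial genes passed the floor in at least 1 library, and MS4A1, MRC1, MARCO and PDGFRA were at 0 counts in all. Their sums were 4.99 to 24.1, 10.1 to 33.4 and 483 to 848 CPM in P95H clones and 14.5 to 35.3, 11.7 to 19.6 and 819 to 1316 CPM in WT clones. In the parental line the sums were 23.0, 39.1 and 914 CPM. Most of the monocyte and macrophage sum was LYZ, at 38.3 CPM in the parental line, 32.5 CPM in P22 and 18.8 CPM in W33. Most of the fibroblast and epithelial sum was KRT8, KRT18, KRT19 and EPCAM, at 723, 363, 126 and 93.1 CPM in W33. There COL1A1, COL1A2 and DCN were at 9.83, 0.213 and 0.0425 CPM. All libraries are from cultures of K562, and marker reads alone do not show that other cells were present, which was not tested. W33 differed from the other WT clones at 2258 genes and P22 from the other P95H clones at 92 genes.

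Between P95H and WT clones no iron gene stood out. Of the 9 that could be tested 0 passed edgeR's quasi-likelihood test at an adjusted p under 0.05, and in each of the 9 the values of the groups overlapped. HMOX1 was too low to test. Over all 18173 genes tested edgeR called 0 (0%), with 2130 at an unadjusted p under 0.05, while DESeq2 called 269 and limma-voom 34, none of them among the 10. P95H clones lay above all WT clones without overlap at 4.53% of genes tested and below them at 3.91%. Of the 9 iron genes 7 had a log2 difference above 0 and 2 below, with a median of 0.08, where the median of all genes was 0.01 and 52.1% were above 0. The smallest 2-sided p that the 70 labelings of 8 clones can give in the exact permutation test is 0.0286, and the iron genes stood between 0.0571 and 0.743.

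**Figure D1:**
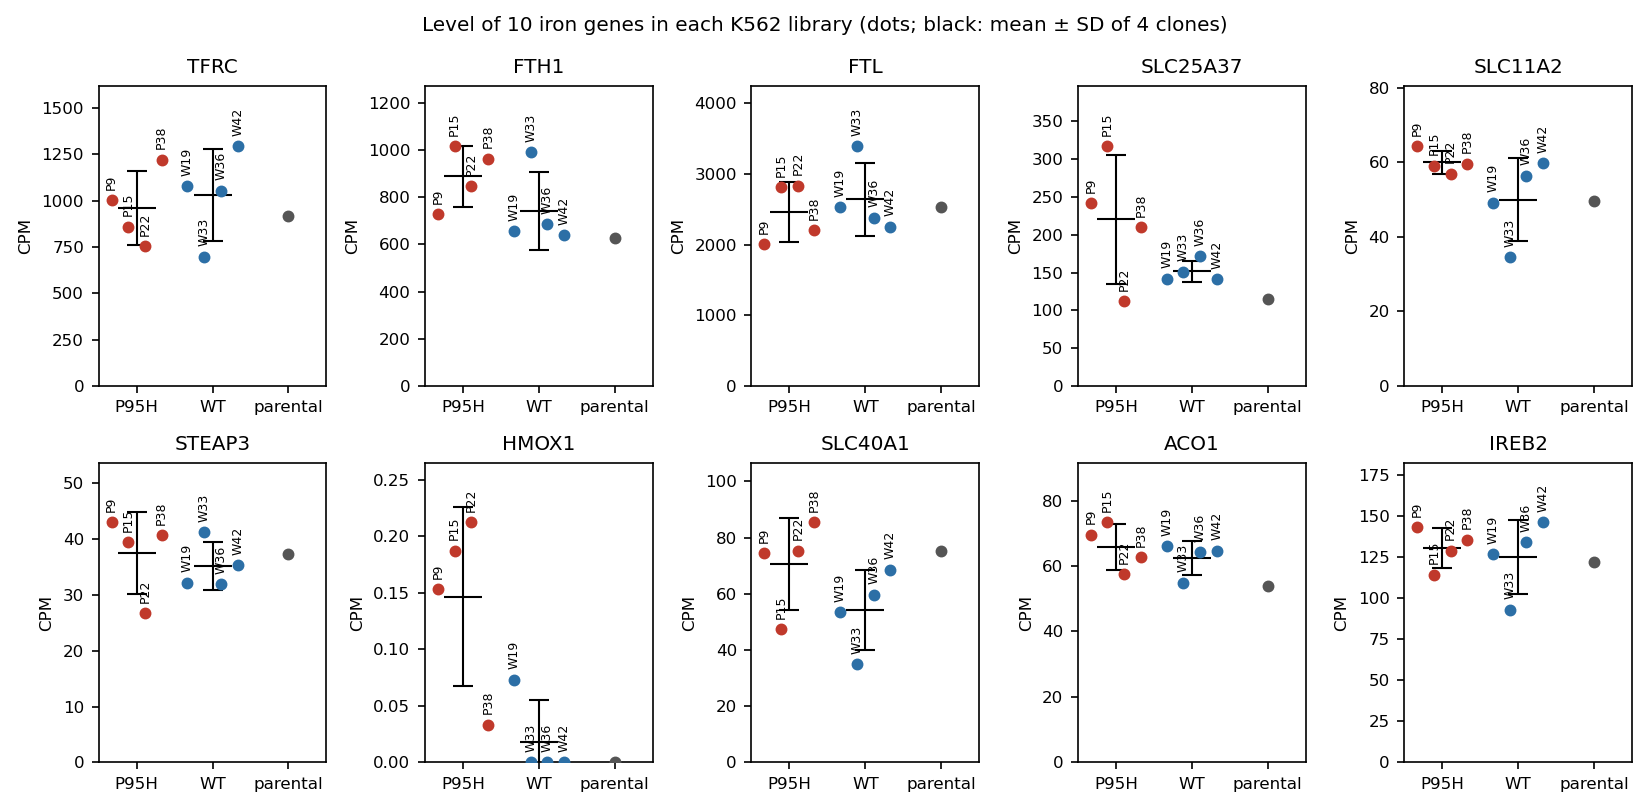
Level of each of the 10 iron genes in CPM (y axis, from 0, a scale of its own per gene) in the 9 libraries. Dots are single libraries, with P95H clones left, WT clones in the middle and the parental line right; black bars are the mean ± SD of 4 clones, and the dots of the 2 clone groups overlap for every gene.

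TFRC (ENSG00000072274), which brings transferrin into the cell, was at 1003, 860.0, 756 and 1222 CPM in the P95H clones P9, P15, P22 and P38. In the WT clones W19, W33, W36 and W42 it was at 1078, 697, 1054 and 1295 CPM, and in the parental line at 917 CPM. The highest and the lowest clone were both WT, and the means were 960.2 ± 202 CPM in the P95H clones and 1031 ± 248 CPM in the WT clones (SD, n = 4 each). The log2 difference was -0.12 (SE 0.20, edgeR adjusted p = 0.843), with a 95% interval of -0.55 to 0.32. Without W42 it was 0.00366 and without W33 it was -0.25.

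STEAP3 (ENSG00000115107, chromosome 2), the endosomal reductase, was at 43.0, 39.5, 26.8 and 40.7 CPM in P9, P15, P22 and P38, against 32.2, 41.2, 31.9 and 35.3 CPM in W19, W33, W36 and W42, and 37.4 CPM in the parental line. P22 was the lowest of the 9 libraries while the other P95H clones were above W19, W36 and W42. Between the groups the log2 difference was 0.08 (SE 0.17, edgeR adjusted p = 0.881, 95% interval -0.29 to 0.45), -0.01 without P9 and 0.20 without P22. Its exons share 11% of their bases with STEAP3-AS1 on the other strand, a row that held 4.02 to 12% as many reads, and the counting strand is not given.

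SLC11A2 (ENSG00000110911, chromosome 12), which carries ferrous iron out of endosomes, was at 64.4, 59.1, 57.0 and 59.7 CPM in P9, P15, P22 and P38. It was at 49.2, 34.5, 56.4 and 59.8 CPM in W19, W33, W36 and W42 and at 49.7 CPM in the parental line. The P95H clones varied little, with a coefficient of variation of 5.21% against 22.4% in WT clones, where W33 was low. P22, P15 and P38 were below W42, so the groups overlapped. The log2 difference was 0.25 (SE 0.15, edgeR adjusted p = 0.540, 95% interval -0.09 to 0.60) and 0.12 without W33.

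SLC25A37 (ENSG00000147454, chromosome 8), also called mitoferrin-1, imports iron into the mitochondria of red cell precursors. It was at 242, 317, 112 and 210 CPM in the P95H clones P9, P15, P22 and P38, against 142, 151, 172 and 142 CPM in W19, W33, W36 and W42, and 115 CPM in the parental line. P9, P15 and P38 were above all WT clones and P22 was below them and below the parental line. The means were 220.2 ± 85.1 CPM in the P95H clones and 152 ± 14.2 CPM in the WT clones (SD, n = 4 each). The log2 difference of 0.52 (SE 0.26) was the largest of the 9, with an unadjusted p of 0.0675 and an edgeR adjusted p of 0.454, and its 95% interval was -0.05 to 1.09. It was 0.30 without P15 and 0.74 without P22.

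Among the P95H clones the median of the erythroid markers had the same order as SLC25A37. Single markers did not all follow that median, and GATA1 was lower in P9, P15 and P38 than in P22. The median log2 of the 20 markers relative to the WT mean was 1.21 in P15, 0.79 in P9, 0.75 in P38 and -0.34 in P22. In W19, W33, W36 and W42 it was -0.17, 0.53, -0.11 and -0.24, and in the parental line -0.06. P15, P9 and P38 held the 3 highest places on both measures and P22 the lowest on both. The order did not hold among the WT clones. W33 had high markers with SLC25A37 in the range of the other WT clones. W36 had the highest SLC25A37 of the WT clones with markers at -0.11. The part of erythroid gene expression in the SLC25A37 difference was not tested, and in bulk RNA fewer cells making a transcript cannot be told apart from less of it per cell. TFRC showed no such order, with 860.0 CPM in P15 and 1295 CPM in W42.

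**Figure D2:**
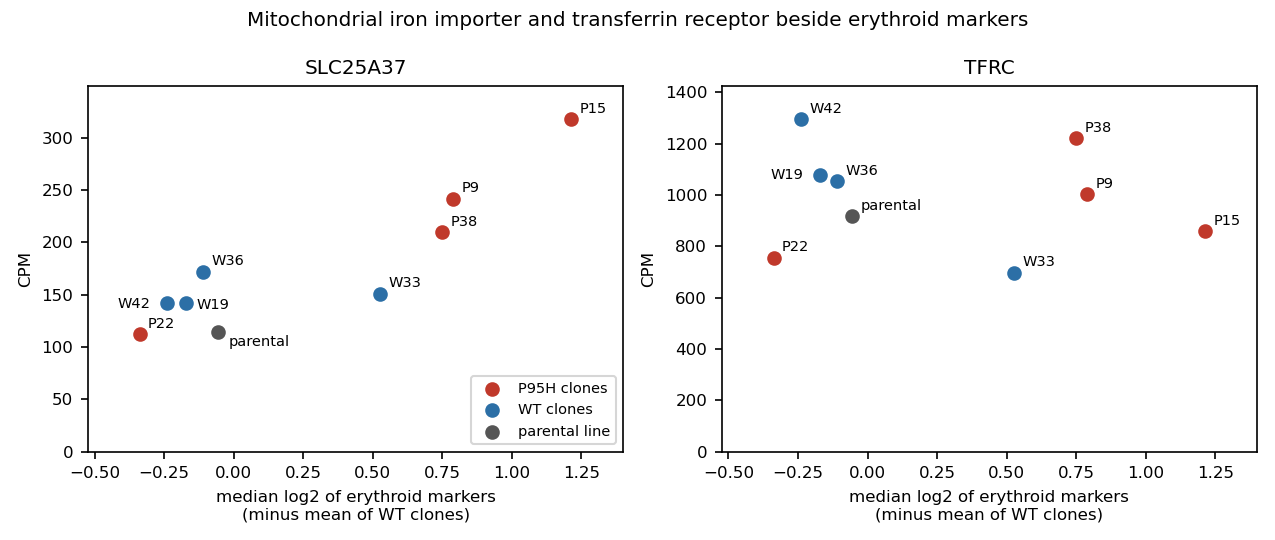
CPM of SLC25A37 (left) and TFRC (right) on the y axis against the median log2 of 20 erythroid markers relative to the mean of the WT clones on the x axis, 1 point per library. P15, P9 and P38 lie at the upper right for SLC25A37 (210 to 317 CPM) and P22 at the lower left (112 CPM), while TFRC ranges from 697 CPM in W33 to 1295 CPM in W42 with no such order.

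FTH1 (ENSG00000167996, chromosome 11), the ferritin heavy chain that oxidises iron for storage, was at 727, 1017, 845 and 963 CPM in the P95H clones P9, P15, P22 and P38. It was at 655, 989, 685 and 638 CPM in W19, W33, W36 and W42 and at 627 CPM in the parental line. Each P95H clone was above W19, W36, W42 and the parental line, and W33 was above P9, P22 and P38. The means were 888 ± 129 CPM in the P95H clones and 742 ± 166 CPM in the WT clones (SD, n = 4 each). On the log2 scale the difference was 0.24 (SE 0.17, edgeR adjusted p = 0.595, 95% interval -0.14 to 0.62), and 0.43 without W33.

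FTL (ENSG00000087086), the light chain that helps iron settle into the ferritin core, was at 2003, 2811, 2834 and 2200 CPM in P9, P15, P22 and P38. It was at 2531, 3394, 2382 and 2251 CPM in W19, W33, W36 and W42 and at 2530 CPM in the parental line. W33 was the highest and P9 the lowest of the 9 libraries. The log2 difference was -0.12 (SE 0.17, edgeR adjusted p = 0.807, 95% interval -0.49 to 0.26), and 0.04 without W33.

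The ratio of FTH1 to FTL reads, a pair chosen after the values were seen, was 0.363 in P9, 0.362 in P15 and 0.298 in P22, and P38 was highest at 0.438. In W19, W33, W36 and W42 it was 0.259, 0.291, 0.288 and 0.283, and in the parental line 0.248. All 4 P95H clones were above all 4 WT clones, with P22 close to W33, and the means were 0.365 ± 0.0571 in P95H and 0.280 ± 0.0147 in WT clones (SD, n = 4 each). The log2 difference of the ratio was 0.37, and the exact permutation p of 0.0286, 2-sided, is the smallest the design allows. All 36 ratios among the 9 genes were computed, and after Benjamini-Hochberg adjustment over them this exact permutation p was 0.514. With 2 of the 36 at the smallest possible p, the adjusted value could not have passed, so missing the threshold decides nothing. The unadjusted p does not allow for the choice of this pair after the values were seen. The only other ratio of the 36 without overlap was SLC11A2 over IREB2, with a log2 difference of 0.22 (0.514 after the same adjustment, exact permutation test). For comparison, among single genes tested P95H clones were above all WT clones at 4.53% and below them at 3.91%. The 2 ratios of 36 are not set apart from these shares.

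Both ferritin genes have processed copies, which bears on their counts. In FTH1, 25 pseudogene rows, 18 of them with reads, held 54.0 to 58.6% of the reads of the gene and its copies, led by FTH1P8 with 5723 to 9701 reads. In FTL, 16 rows, 6 with reads, held 20.7 to 22.5%, led by FTLP3 with 13363 to 24048 reads. BEST1, on the other strand, overlaps 62.4% of the exon bases of FTH1, and its row held 13982 to 24236 reads, 74.3 to 91.4% as many as FTH1. With pseudogene reads added the log2 difference between P95H and WT clones was 0.20 for FTH1 and -0.13 for FTL, and with BEST1 reads added it was 0.21 for FTH1. The log2 difference of the ratio was 0.34 with pseudogenes added to both, 0.34 with BEST1 added to FTH1 and 0.33 with all of them, and in these 3 versions the groups did not overlap. The 3 versions contain the same FTH1 and FTL reads, so they are not separate results.

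**Figure D3:**
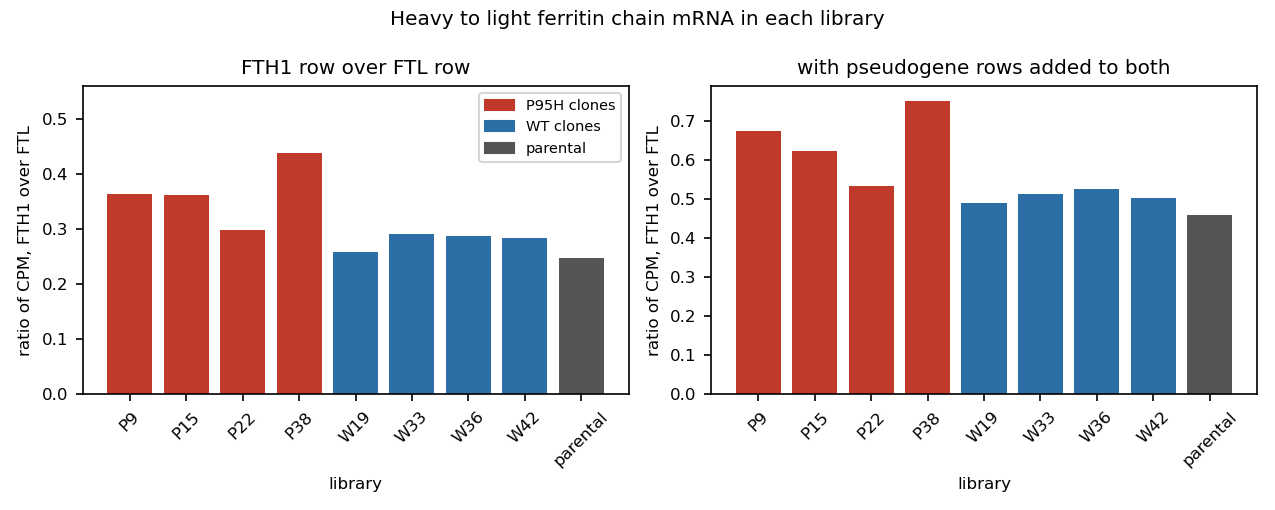
Ratio of FTH1 to FTL CPM (y axis, from 0) in each library (x axis), from the gene rows on the left and with pseudogene rows added to both genes on the right; P95H clones are red, WT clones blue and the parental line grey. On the left the P95H clones run from 0.298 to 0.438 and the WT clones from 0.259 to 0.291; on the right they run from 0.534 to 0.752 and from 0.490 to 0.525.

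HMOX1 (ENSG00000100292, chromosome 22) encodes the inducible enzyme that opens heme and frees its iron. Its row held 4, 6, 7 and 1 reads in P9, P15, P22 and P38, against 2 reads in W19, 0 in W33, W36 and W42, and 0 in the parental line. Summed over clones this was 18 reads in P95H clones (0.149 CPM, 95% Poisson interval 0.0881 to 0.235) and 2 reads in WT clones (0.0183 CPM, 0.00222 to 0.0662), while 0 reads in the parental line allow up to 0.106 CPM by the same interval. The ratio of the summed levels was 8.11, with a 95% counting interval of 1.94 to 72.0 that does not cover variation between clones. P38 was below W19, and the 2-sided exact permutation p over clones was 0.0571. The DESeq2 adjusted p was 0.419, from a fit that left out only genes with no reads in the clones. P9, P15 and P22 were above the floor of 3 counts.

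SLC40A1 (ENSG00000138449), ferroportin, the known iron exporter of animal cells, was at 74.5, 47.4, 75.3 and 85.4 CPM in P9, P15, P22 and P38. It was at 53.3, 34.8, 59.7 and 68.6 CPM in W19, W33, W36 and W42 and at 75.4 CPM in the parental line. P9, P22 and P38 were above all WT clones, P15 was below W19, W36 and W42, and the parental line was level with P22. The log2 difference was 0.37 (SE 0.22, edgeR adjusted p = 0.534, 95% interval -0.12 to 0.87), and it was 0.22 without W33 and 0.52 without P15.

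ACO1 (ENSG00000122729, chromosome 9) encodes iron regulatory protein 1, which serves as a cytosolic aconitase when it holds an iron-sulfur cluster. It was at 69.6, 73.3, 57.5 and 62.7 CPM in P9, P15, P22 and P38, at 66.1, 54.9, 64.2 and 64.7 CPM in W19, W33, W36 and W42, and at 53.9 CPM in the parental line. It varied least of the 10, by 1.36-fold between the highest and the lowest library. Between the groups the log2 difference was 0.06 (SE 0.11, edgeR adjusted p = 0.857), with a 95% interval of -0.19 to 0.31, and 0.00479 without P15 and 0.01 without W33.

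IREB2 (ENSG00000136381, chromosome 15) encodes iron regulatory protein 2, which is degraded when iron is plentiful. It was at 143, 114, 129 and 135 CPM in P9, P15, P22 and P38, at 127, 93.0, 134 and 146 CPM in W19, W33, W36 and W42, and at 122 CPM in the parental line. P95H clones lay within the range of the WT clones. The log2 difference was 0.05 (SE 0.14, edgeR adjusted p = 0.912, 95% interval -0.26 to 0.36), and -0.06 without W33.

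**Figure D4:**
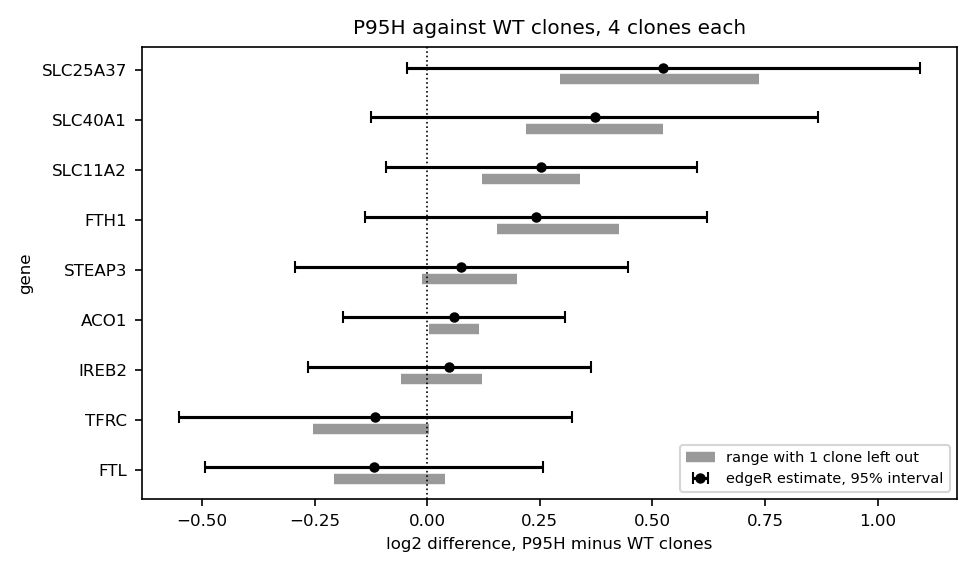
Log2 difference, P95H minus WT clones (x axis), of the 9 tested iron genes (y axis), with points for the edgeR estimate and lines for its 95% interval. Grey bars give the range with 1 clone left out; SLC25A37 has the largest estimate, 0.52, with a range of 0.30 to 0.74, and TFRC, FTL, STEAP3 and IREB2 have ranges that cross 0.

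Per kilobase of exon, counted over all exons of a gene in GENCODE 29, FTL was the most abundant of the 10 in every library, at 2903 CPM per kilobase over the 9 libraries, followed by FTH1 at 391 and TFRC at 125. Their ranges did not overlap with each other or with any lower gene. Below them came SLC25A37 at 21.9, SLC40A1 at 14.7, IREB2 at 11.8, ACO1 at 8.34, STEAP3 at 7.99 and SLC11A2 at 5.37 CPM per kilobase, and each of these overlapped its neighbours in that order. HMOX1 was last at 0.0304. The ferritin values are from the gene rows alone. In those rows the ratio of FTH1 to FTL reads, not divided by length, was 0.248 to 0.438 over the 9 libraries. With the pseudogene and BEST1 rows added it was 0.635 to 1.02. The distance between FTL and FTH1 therefore depends on how reads were assigned to these rows. With the longest coding transcript as the length, the first 4 places and the last were as before, and the order between them was IREB2, SLC40A1, SLC11A2, STEAP3 and ACO1. IREB2 was above ACO1 per kilobase of exon in all 9 libraries, at 10.6 to 13.2 CPM per kilobase in P95H clones, 8.60 to 13.5 in WT clones and 11.3 in the parental line.

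Against the parental library the clone groups were compared by edgeR in a 3-group model, taking the parental library, which has no replicate, to be as variable as a clone. Both comparisons share that library. For P95H clones against the parental line 0 of 20636 genes were called by edgeR (0%), with 1090 at an unadjusted p under 0.05 and 9 called by DESeq2. For WT clones against the parental line 1 was called (0.00485%), with 354 at an unadjusted p under 0.05 and 7 called by DESeq2. Of the 9 iron genes tested 0 were called in either. SLC25A37 had a log2 difference of 0.93 (SE 0.44, edgeR adjusted p = 0.856) in P95H clones and 0.41 (SE 0.42, adjusted p = 1) in WT clones. FTH1 had 0.49 (SE 0.29) in P95H clones and 0.26 (SE 0.28) in WT clones. SLC40A1 had -0.11 (SE 0.34) in P95H clones and -0.47 (SE 0.34) in WT clones. The other 6 genes lay between -0.05 and 0.27 in P95H clones and between -0.07 and 0.22 in WT clones.

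Single clones were set against the other 3 clones of their group, in models of the 8 clones over 20344 genes, where the lone clone is assumed to vary like the rest. In W33, edgeR called 969 genes higher and 1289 lower (11.1% of genes tested), and 500 in all without W19, 0 without W36 and 0 without W42. Of the 9 iron genes 1 was called, SLC11A2, with a log2 difference of -0.65 (SE 0.14, edgeR adjusted p = 0.0308), a share about equal to that of all genes. The call was lost without W19, W36 or W42, at edgeR adjusted p = 0.0552, 0.0995 and 0.108. W33 had 1.53-fold the FTH1 (log2 0.61, edgeR adjusted p = 0.0548) and 1.45-fold the FTL (log2 0.53, adjusted p = 0.115) of the other WT clones. TFRC had a log2 difference of -0.69 (edgeR adjusted p = 0.119), IREB2 -0.52 (0.0641), SLC40A1 -0.77 (0.137) and SLC25A37 0.02 (0.987).

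In P22, edgeR called 92 genes (0.452%), and 32 to 36 with 1 other P95H clone left out, and none of the 9 iron genes. SLC25A37 came nearest, with a log2 difference of -1.19 (SE 0.25, edgeR adjusted p = 0.100), 0.438 of the level in the other P95H clones. STEAP3 had -0.61 (SE 0.21, adjusted p = 0.350) and TFRC -0.44 (adjusted p = 0.899). In P15, edgeR called 1 gene (0.00492%), not an iron gene, and SLC25A37 had 0.75 (adjusted p = 0.659) and SLC40A1 -0.73 (adjusted p = 0.643). W42 had 4 calls (0.0197%) and P9, P38, W19 and W36 had 0 (0%), and none of the 9 iron genes was among them. In these 4 clones 777, 489, 114 and 128 genes were at an unadjusted p under 0.05.

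**Figure D5:**
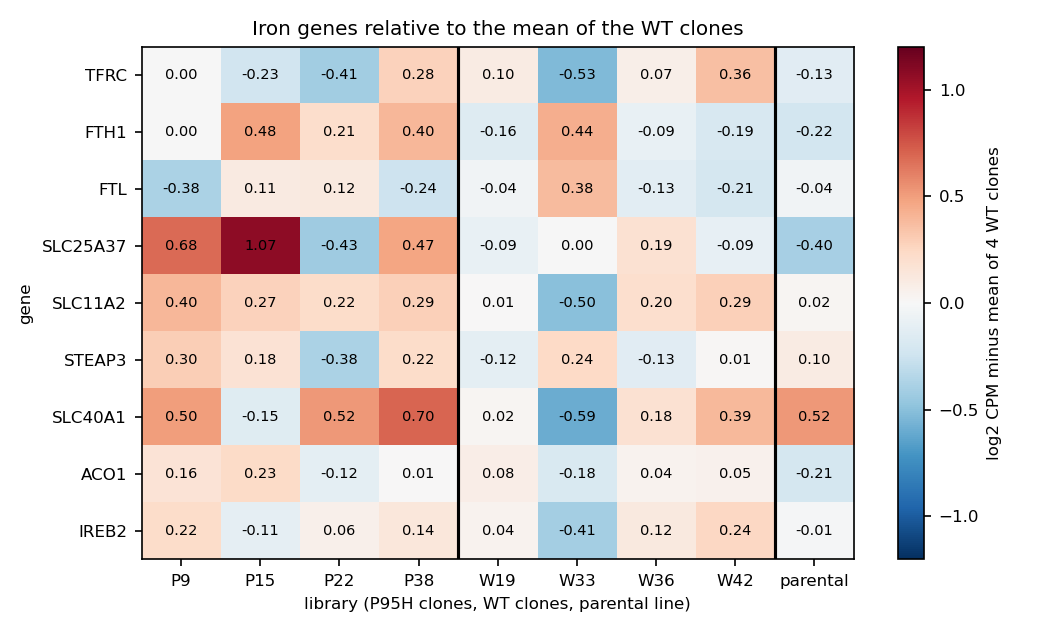
Log2 CPM of 9 iron genes (rows) in each library (columns) minus the mean of the 4 WT clones, red above and blue below it, with black lines between P95H clones, WT clones and the parental line. SLC25A37 runs from 1.07 in P15 to -0.43 in P22, and in W33 TFRC, SLC11A2, SLC40A1 and IREB2 are at -0.59 to -0.41 while FTH1 and FTL are at 0.44 and 0.38.

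Genes beside each iron gene on its chromosome were read for comparison, 10 on each side, as the log2 difference of a clone from the other 7. Near FTL in W33 all 20 neighbours were above 0, with a median of 0.55 where FTL itself was at 0.49. Near FTH1 in W33 the median was 0.28 and FTH1 was at 0.35, while in P15 18 of 20 neighbours were below 0 (median -0.36) and FTH1 was at 0.39. FTH1 was at -0.16 in P9, 0.09 in P22 and 0.30 in P38, with neighbour medians of 0.11, 0.10 and 0.01. For SLC25A37 the neighbours had a median of -0.08 in P15, where the gene was at 0.97, and of 0.12 in P22, where it was at -0.75. FTL was at -0.38 in P9 and -0.22 in P38, where 16 and 18 of 20 neighbours were below 0 (medians -0.21 and -0.20). In P15 and P22 FTL was at 0.18 and 0.20, with neighbour medians of 0.13 and -0.10. All these P95H clones had a higher FTH1 to FTL ratio than any WT clone. FTL in W33, P9, P15 and P38 and FTH1 in W33, P22 and P38 stood in the same direction as the median of their neighbours. FTL in P22, FTH1 in P9 and P15 and SLC25A37 in P15 and P22 did not. The part of gene dosage in these levels and in the ratio was not tested.

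For 8 of the iron genes the 1 gene most like each in log2 CPM over the 9 libraries, out of 11969, was found by Pearson's r, a description over libraries that share depth and clone differences. For the ferritin genes it was a pseudogene of their own, FTH1P2 (r = 0.960) and FTLP3 (r = 0.984). The others were GPAM for TFRC (0.968), CRYAB for STEAP3 (0.903), METTL14 for SLC11A2 (0.990), ZNF189 for SLC40A1 (0.987), SPICE1 for ACO1 (0.980) and SCAF11 for IREB2 (0.996). Each r is the highest of 11969 over only 9 libraries, so the choice itself makes it high. Without the 2 libraries farthest from the median of the iron gene, r ran from 0.817 (STEAP3) to 0.991 (IREB2).

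The wider iron pathway was read from 8 lists of 101 genes, of which 86 were tested between P95H and WT clones. Of these, 43 were above 0 and 43 below, 0 were called by edgeR and 10 were at an unadjusted p under 0.05. Over all genes the count at an unadjusted p under 0.05 was 2130 of 18173. P95H clones were above all WT clones at 1 of the 86 genes and below them at 6, where the shares over all genes were 4.53% and 3.91%. Single clones moved several of the values that follow, and those are given.

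Among 13 tested genes of iron uptake and import, 8 were above 0 and 5 below (median 0.15). LRP1, a receptor that takes up heme bound to hemopexin, was at 12.7, 44.7, 10.5 and 9.62 CPM in P9, P15, P22 and P38, against 5.44 to 7.98 CPM in WT clones and 3.66 CPM in the parental line. P15 stood far above the rest (log2 1.51, SE 0.48, edgeR adjusted p = 0.334), and without P15 the log2 difference was 0.68. SLC39A14, a metal importer, had -0.23 and TFR2, the second transferrin receptor, 0.23. In 6 genes of ferritin storage and turnover 3 were above 0 and 3 below. GLRX3, a glutaredoxin that handles iron-sulfur clusters, was at 80.1 to 99.0 CPM in P95H clones and 104 to 115 CPM in WT clones, without overlap (log2 -0.34, SE 0.10, adjusted p = 0.320). PCBP1, an RNA-binding protein that also delivers iron to ferritin, had 0.07 (0.14 without W33, 0.02 without W42) and PCBP4 0.32 (0.65 without W33, 0.11 without P22).

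The genes of the iron regulatory proteins and their control split 5 above and 5 below 0 (10 tested). CIAO3, of the cytosolic iron-sulfur machinery, had a log2 difference of -0.31 (edgeR adjusted p = 0.421), CUL1, a ubiquitin ligase scaffold, -0.09 and CIAO2B -0.24, which was 0.051 without W33. Of 9 genes of export and systemic control 6 were above 0 and 3 below. HAMP, the precursor of the hormone hepcidin, was at 2.18, 5.14, 3.03 and 0.536 CPM in P9, P15, P22 and P38 against 0.294 to 2.30 CPM in WT clones (log2 1.36, SE 0.73, edgeR adjusted p = 0.494), with 0.86 without P15 and 2.09 without W33. ERFE, the erythroid hormone that lowers hepcidin, had 0.48 (0.28 without P9 or P15, 0.74 without P22) and HEPH, a ferroxidase, -0.23 (-0.10 without P22, -0.34 without W33).

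Mitochondrial iron and iron-sulfur cluster genes split 9 above and 9 below 0 (18 tested, median -0.01). NFS1, the cysteine desulfurase that supplies sulfur to the clusters, was at 20.2, 32.6, 33.7 and 30.4 CPM in P9, P15, P22 and P38, against 46.5, 49.6, 49.8 and 48.2 CPM in W19, W33, W36 and W42, and 50.7 CPM in the parental line. All P95H clones were below all other libraries, P9 furthest (log2 -0.75, SE 0.16). The edgeR adjusted p was 0.282 and the DESeq2 adjusted p 0.00544. BOLA3, a cluster assembly factor, had -0.29 and ABCB10, a mitochondrial transporter that binds mitoferrin-1 in mouse cells, 0.30 (0.13 without W33).

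Of 10 genes of heme breakdown and transport 3 were above 0 and 7 below (median -0.30). PGRMC1, a heme-binding membrane protein, was at 71.6, 62.4, 61.6 and 67.9 CPM in P9, P15, P22 and P38, against 87.8, 89.0, 81.5 and 92.7 CPM in W19, W33, W36 and W42, and 81.3 CPM in the parental line. The groups did not overlap (log2 -0.43, SE 0.10, edgeR adjusted p = 0.282, DESeq2 adjusted p = 0.00770). FLVCR1, described as a heme exporter, had -0.33 and FLVCR2 -0.98, both with overlap. FLVCR2 was at 3.28 CPM in W33 and 0.919 to 1.72 CPM in the other WT clones, and without W33 the log2 difference was -0.55. Of 13 genes of heme- and NRF2-responsive regulation 5 were above 0 and 8 below. BACH1, the heme-sensing repressor of HMOX1, had 0.33 (edgeR adjusted p = 0.488, 0.19 without W33), with 34.1 to 44.9 CPM in P95H clones and 22.2 to 39.2 CPM in WT clones. MAFK, a partner of BACH1 on DNA, was lower in P95H clones without overlap, at 6.82 to 8.95 against 9.42 to 11.8 CPM (log2 -0.39, adjusted p = 0.378), and MAFG had 0.22, or 0.058 without W33.

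Of 12 mRNAs reported to carry an iron-responsive element, all tested, 7 were above 0 and 5 below (median 0.11). ALAS2, which starts heme synthesis in the red cell lineage, was at 190, 733, 139 and 114 CPM in the P95H clones P9, P15, P22 and P38. It was at 52.4, 126, 17.8 and 20.3 CPM in W19, W33, W36 and W42 and at 26.7 CPM in the parental line (log2 2.42, SE 0.79, edgeR adjusted p = 0.335). P38 was below W33, and the log2 difference was 1.43 without P15 and 3.28 without W33. ALAS2 is also 1 of the 20 erythroid markers, whose medians were highest in P15, P9 and P38. CDC42BPA, a kinase, had 0.28 (0.16 without P22) and HIF1A, a hypoxia factor, 0.20 (0.07 without W33). Exons of PCBP1 (52.2% of bases), CIAO3 (21.5%), CRYAB (20.6%), FLVCR2 (19.8%), MAFK (18.1%) and CUL1 (10.9%) overlap genes on the other strand. How reads there were assigned is not given, so the counts of these genes may be affected.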

How the data were processed

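RNA was measured once in each of the 4 P95H clones, the 4 WT clones and the parental line. Per the labels' protocols, polyadenylated RNA was made into TruSeq libraries and sequenced on a HiSeq2000. The deposited files list unnormalized read counts by Ensembl gene ID, made by the authors with bcl2fastq, TopHat2 2.0.4 and HTSeq 0.6.1p1 on GRCh37, per the submitters' processing notes. How the counter treated strand and overlapping genes is not given in the sources used here. Summary values at the end of each list (no gene, 47.6 to 49.1% of reads; ambiguous, 2.23 to 2.55%; not unique, 5.06 to 6.06%) were kept out of library sizes, which left 43.3 to 44.2% in genes.

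Symbols (52181 IDs matched), exon lengths, gene order and transcripts came from GENCODE 29 (GRCh38). The counts were made on another build, so genome coordinates are left out. Tests used edgeR 4.0.16 in R 4.3.3, with the filter of filterByExpr, TMM factors and the quasi-likelihood F test after a robust fit, called at a Benjamini-Hochberg adjusted p under 0.05 across every gene tested. Standard errors were taken from the F test and 95% intervals from its total degrees of freedom, the residual ones plus those borrowed across genes. Levels are CPM after TMM scaling, and log2 CPM used a prior count of 2. The scripts were tested on simulated data. The biological coefficient of variation was 26.3%. The alternatives comprised scaling by RLE or upper quartile, no filter and a filter of 1 CPM in 4 libraries. Others were DESeq2 1.42.0, limma-voom (limma 3.58.1), a 3-group fit, each clone left out, and W33 and P22 left out. All limma-voom results used quality weights for the libraries. Chosen after seeing the data were the added pseudogene and BEST1 reads, the coding-transcript length and the ratios between genes.

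The 10 genes, the lists and the tests were chosen with earlier results of these data known. By the naming rule all 10 genes were reported. So were the 3 other genes of each list with the smallest unadjusted p and a mean of at least 1 CPM, and the gene most like each iron gene among those with a mean of at least 5 CPM. For SLC25A37 that gene is not reported here, and HMOX1 was too low for the search.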

Additional observations from a re-analysis of the deposited data

Results flagged for a closer look

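In 68 groups of 4 clones, gene by gene, the gap of 1 clone to the rest was compared with the whole range of the group, with a critical value of 0.829 that chance passes in about 1 of 20 groups, and 5 groups passed. All 5 were WT clones. For FTH1, W33 was at 989 CPM where the other WT clones were at 638 to 685 CPM (ratio 0.837). For ACO1, W33 was at 54.9 CPM where the others were at 64.2 to 66.1 CPM (0.848). For MAFG, W33 was at 44.6 CPM where the others were at 76.4 to 80.9 CPM (0.904). For BOLA3, W19 was at 58.4 CPM where the others were at 67.8 to 69.7 CPM (0.841). For HMOX1, W19 was at 0.0730 CPM, 2 reads, where the others were at 0 (1), below the floor of 3 counts.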

How the results depend on the processing

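Under all alternatives run, 0 of the 9 tested iron genes passed the threshold between P95H and WT clones. No paired analysis was possible because the labels link no P95H clone to a WT clone. Over all genes, P95H against WT clones gave 2 calls without a filter, 269 with DESeq2, 34 with limma-voom, 5 without W33 and P22 and 0 to 1 with 1 clone left out. RLE and upper quartile scaling, the stricter filter and the 3-group fit gave 0. WT clones against the parental line gave 5 without a filter, 7 with DESeq2 and 0 to 1 with a clone left out; P95H clones against it gave 5, 9 and 0 to 2. Without a filter P15 had 25 calls, P22 251, P38 1 and W19 1. With 1 other clone of its group left out P22 had 32 to 36 calls, W33 0 to 500 and W42 2 to 3.

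The direction turned for these genes, none past the threshold. Between P95H and WT clones, with 1 clone left out, TFRC ran from -0.25 to 0.00366, FTL from -0.21 to 0.040, STEAP3 from -0.011 to 0.20, IREB2 from -0.059 to 0.12 and CIAO2B from -0.39 to 0.051. IREB2 was -0.000782 with limma-voom and -0.053 without W33 and P22, where CIAO2B was 0.045. With 1 clone left out of WT clones against the parental line, FTL ran from -0.083 to 0.15, SLC11A2 from -0.082 to 0.15 and IREB2 from -0.041 to 0.15. For P95H clones against it TFRC ran from -0.070 to 0.15, FTL from -0.13 to 0.035, STEAP3 from -0.080 to 0.12 and SLC40A1 from -0.20 to 0.057. STEAP3 in P95H clones against the parental line was 0.00489 without a filter. The cause was not tested. NFS1 and PGRMC1 passed with DESeq2 (log2 -0.75 and -0.43). Depth limits HMOX1, with 18 reads in P95H and 2 in WT clones.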
